A study of Mus musculus with 20 samples.

Results

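Tumors raised by FGF19 and MYC were compared with tumors raised by loss of Trp53 and MYC, which accounts for 10 of the 20 RNA-seq samples of the study, 5 tumors of each kind. Members were taken by the condition in their sample titles. All tumors arose in livers of C57Bl6J;WT mice, young adult females, after plasmids were pushed into hepatocytes through the tail vein by hydrodynamic gene transfer. Both groups received the pT3-EF1a-MYC plasmid, in which the EF1a promoter drives MYC, and the sleeping beauty transposase SB100X. The FGF19+MYC group also received pSBbi-RN-FGF19, which carries human FGF19, and the sgTrp53+MYC group received LentiCRISPRv2-sgTrp53, which carries Cas9 and a guide against the mouse Trp53 gene (the treatment field of these 5 samples reads None). Each library came from a single snap-frozen tumor, and mice were fasted before collection. Per the study's text, livers were taken at signs of tumor growth or at a set endpoint, and mice given FGF19 and MYC were taken within weeks of injection. The time for these sgTrp53+MYC tumors was not given in the sources used here. Aldafermin+MYC tumors, in which an analog of FGF19 takes its place, and livers without tumor, 5 each, are given beside the tumors compared. Both also enter the statistical model. The livers are titled Non treated, while the study's text describes its control liver as given an RFP plasmid by hydrodynamic gene transfer. The question put to this pair of groups is how tumors that share MYC differ with the partner that raised them.

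FGF19 is the human form of an intestinal hormone, Fgf15 in the mouse, that reaches the liver after a meal, binds FGFR4 with its co-receptor beta-klotho, and through ERK signaling and the receptor partner Nr0b2 lowers Cyp7a1, the rate-limiting enzyme of bile acid synthesis. MYC is a transcription factor that drives ribosome building, nucleotide synthesis and cell division. p53, the product of Trp53, is a transcription factor that stops the cycle or kills the cell after DNA damage or oncogene activity, through targets such as Cdkn1a and Bax, and is held down by its own target Mdm2.

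The authors deposited raw read counts per gene. Levels are given here as CPM, a library's counts scaled to one fixed total with TMM factors, which allows a gene to be compared between libraries but not with other genes. Differences are log2 fold changes of FGF19+MYC minus sgTrp53+MYC from edgeR's quasi-likelihood test on 14333 genes, so a positive value is higher in FGF19+MYC tumors, and a gene is called at a Benjamini-Hochberg adjusted p under 0.05. By this rule 2258 genes were called, 15.8% of those tested, 1143 (7.97%) higher and 1115 (7.78%) lower in FGF19+MYC tumors, and the median log2 fold change of all genes was -0.03. The levels of the groups did not overlap in 10.9% of genes. These percentages are the background for each gene group below.

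The 5 FGF19+MYC libraries were counted in a table with the Aldafermin+MYC tumors and livers, and the 5 sgTrp53+MYC libraries stood alone in another, so a difference between tumors and a difference between tables cannot be told apart. Reads counted on genes ranged from 18004977 to 28417261 in FGF19+MYC and from 54042455 to 66354724 in sgTrp53+MYC libraries. Reads that were not aligned made up 20.9% to 34.0% of the first and 5.34% to 6.82% of the second, and reads assigned to several genes at once 3.03% to 6.30% and 11.1% to 14.6% (exact two-sided permutation test, p = 0.00794 for each, the smallest that 5 against 5 allows). Over 13929 genes, Spearman's rho of the difference was 0.291 against GC content and -0.185 against exon length, across genes, which are not independent replicates. Within its group, sgTrp53+MYC replicate 2 stood apart in several genes: Cdkn2a, the tumor suppressor that frees p53 from Mdm2, had 80.9 CPM there and at most 0.790 in the other 4 tumors of the group. Results that rest on this library are given with and without it. Where a call ended under another setting this is said, the settings being mainly a model of the 10 libraries alone, a model without livers, the replicate number as a block, and GC content and exon length as an offset (the GC and length offset).

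Trp53 transcript was lower in the tumors that received the guide. Its level was 109.7, 155, 148, 148 and 137 CPM in FGF19+MYC replicates 1 to 5 and 18.7, 79.9, 35.4, 51.02 and 48.8 CPM in sgTrp53+MYC replicates 1 to 5. No sgTrp53+MYC tumor reached the lowest FGF19+MYC tumor, and the log2 fold change was 1.58 (SE 0.26, adjusted p = 0.000615). An exact two-sided permutation test on log2 CPM gave p = 0.00794. sgTrp53+MYC replicate 1 was the lowest and replicate 2 the highest of its group. Livers had 32.8 ± 2.98 (SD, n = 5) CPM. A level of transcript in whole tumors does not show which alleles were cut, and fewer cells of a type and less RNA per cell cannot be told apart here.

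Many p53 targets have a consensus sequence near their start to which p53 binds, a repeated element of 10 bases. The sequences below hold both copies of the element with no gap and were found within 3000 bases of the annotated start of a p53 target gene, on the strand of the gene in GRCm39 (GENCODE M39 starts), shown because p53 targets of arrest had the largest share of called members of the lists. Capitals mark the 4 core letters of each element, which had to match, and up to 2 of the other letters could differ.
Zmat3 (chr3:32418480-32418499, minus strand): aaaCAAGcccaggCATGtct
Cdkn1a (chr17:29309902-29309921, plus strand): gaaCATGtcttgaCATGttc
Ccng1 (chr11:40645763-40645782, minus strand): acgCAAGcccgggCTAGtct
Gdf15 (chr8:71084616-71084635, minus strand): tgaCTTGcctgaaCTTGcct
Gtse1 (chr15:85744146-85744165, plus strand): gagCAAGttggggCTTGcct
Psrc1 (chr3:108291972-108291991, plus strand): gggCATGttgaggCATGccc
Trp53cor1 (chr17:29298013-29298032, minus strand): ggcCTTGcccgggCTTGcct
Fas (chr19:34269764-34269783, plus strand): gggCATGtacaaaCATGtca
Perp (chr10:18718782-18718801, plus strand): attCTAGcccaggCTTGccc
The first sequence matched with 0 differing letters, the next 6 with 1 each and the last 2 with 2 each, and Pidd1 and Plk2 (a pair of places) also held a sequence with 2. The first 7 genes were all called higher in FGF19+MYC tumors, while Fas had a log2 fold change of 0.87 (adjusted p = 0.0616) and Perp of -0.04 (adjusted p = 0.929). Such a sequence was present at 9 of 24 p53 targets called higher (37.5%), at 3 of 26 that were not called higher (11.5%) and at 541 of 13929 tested genes (3.88%). The 3 not called higher are Fas, Perp and a gene whose sequence is not reported here. With at most 1 differing letter the numbers were 7 of 24, 0 of 26 and 113 of 13929 (0.811%). Of all genes called higher, p53 targets or not, 54 of 1103 (4.90%) held a sequence with at most 2 differing letters. Of all genes called lower it was 37 of 1072 (3.45%). A match is a description of the letters, not a measured binding site.

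Targets of p53 that stop the cycle or act back on p53 were the gene group with the largest share called: 13 of 16 tested were higher in FGF19+MYC tumors, 1 was lower and 2 were not called, with a median log2 fold change of 1.65. Cdkn1a, the inhibitor of cyclin-dependent kinases, had 104, 143, 164, 139 and 162 CPM in the 5 FGF19+MYC tumors and 18.96, 18.8, 22.5, 23.02 and 32.8 CPM in the 5 sgTrp53+MYC tumors. Its highest sgTrp53+MYC tumor, replicate 5, was below the lowest FGF19+MYC tumor, and the log2 fold change was 2.62 (SE 0.48, adjusted p = 0.00127). Mdm2, the ubiquitin ligase that removes p53, had 68.9, 74.3, 109, 88.2 and 70.9 CPM in FGF19+MYC and 35.1, 39.3, 27.8, 33.97 and 33.5 CPM in sgTrp53+MYC tumors, a log2 fold change of 1.28 (SE 0.15, adjusted p = 3.5e-05). Ccng1, which encodes cyclin G1 and acts with Mdm2, had a range of 99.3 to 137 CPM against 22.5 to 42.1 (1.78, SE 0.21, adjusted p = 4e-05), and Plk2, a polo-like kinase, 20.9 to 34.5 against 3.91 to 7.95 (2.32, SE 0.33, adjusted p = 0.000196). Outside the naming rule and chosen after their values were seen, Zmat3, an RNA-binding protein, differed by 1.92, Trp53inp1 by 2.20 and the long noncoding RNA Trp53cor1 by 2.96. The lower gene was Sesn1, a stress-induced regulator of mTORC1 also outside the rule, with 13.005 to 18.6 CPM against 19.2 to 26.1 (-0.52, SE 0.14, adjusted p = 0.0159), whereas its relative Sesn2 was higher by 2.37. Sesn1 was not called with the replicate number as a block (adjusted p = 0.0515). Gadd45a and Ppm1d were not called. Cdkn2a, a further list member, did not pass the filter on low counts and had 0.269 to 0.837 CPM in FGF19+MYC tumors.

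**Figure D1:**
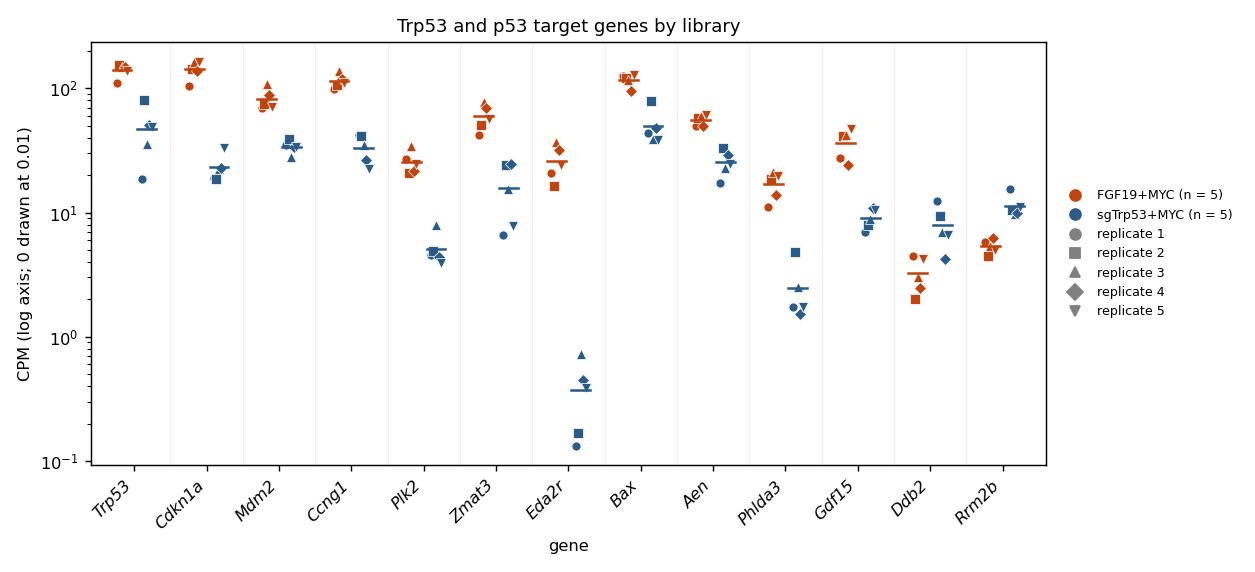
CPM on a log axis of Trp53 and 12 p53 target genes in the 5 FGF19+MYC and 5 sgTrp53+MYC libraries. Each symbol is a library, its shape the replicate number, and each line the group mean. Cdkn1a, Mdm2, Ccng1 and Eda2r did not overlap between groups, and Ddb2 and Rrm2b lay higher in sgTrp53+MYC tumors.

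Targets that act in cell death were higher in 7 of 15 tested, with none lower by edgeR (9 and 0 at an unadjusted p under 0.05, 8 and 0 with DESeq2) and a median of 0.73. Eda2r, a receptor of the TNF receptor family, was at 20.9, 16.4, 37.1, 31.8 and 24.3 CPM in FGF19+MYC tumors and 0.132, 0.168, 0.727, 0.449 and 0.384 CPM in sgTrp53+MYC tumors. It was at or below 1 CPM in every sgTrp53+MYC tumor, and at 6.11 (SE 0.67, adjusted p = 2.6e-05) it had the highest log2 fold change of the genes that meet the naming rule. Bax, which opens the mitochondrial membrane, had 95.4 to 128 CPM against 38.4 to 79.5 (1.23, SE 0.19, adjusted p = 0.000434), and sgTrp53+MYC replicate 2 was the highest of its group. Aen, a nuclease of apoptosis, differed by 1.14 (SE 0.15, adjusted p = 0.000123), and the death receptor Tnfrsf10b by 1.48 (SE 0.42, adjusted p = 0.0221), with 2.72 to 12.8 CPM in sgTrp53+MYC tumors, again highest in replicate 2. Tnfrsf10b was not called without FGF19+MYC replicate 3 or sgTrp53+MYC replicate 3 or 5 (log2 fold changes of 1.33 to 1.39, adjusted p of 0.0508 to 0.0578), nor with the 10 libraries alone or with the GC and length offset in the 10 libraries (adjusted p of 0.0516 to 0.0607). Bax, Aen, Bbc3 and Pidd1 lie on chromosome 7, where the median over all genes was 0.29. Elsewhere in the genome 3 of 11 death targets were higher, with a median of 0.50. Over all death targets, 5 were higher with the 10 libraries alone, with the GC and length offset in the 10 libraries or with no filter on low counts. Leaving out 1 library gave 5 to 8.

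Targets in repair, metabolism and secretion were mixed: 4 of 19 were higher and 2 lower, with a median of 0.33. Phlda3, which holds back AKT, was at 11.2, 18.8, 21.2, 13.9 and 19.8 CPM in FGF19+MYC and 1.75, 4.77, 2.503, 1.54 and 1.73 CPM in sgTrp53+MYC tumors (2.78, SE 0.45, adjusted p = 0.00053). Gdf15, a secreted stress cytokine, had 27.6, 41.6, 41.8, 23.98 and 46.9 CPM against 6.98, 7.89, 8.79, 10.9 and 10.5 (2.01, SE 0.36, adjusted p = 0.00115). Both genes were higher in every FGF19+MYC tumor than in any sgTrp53+MYC tumor. Ak1, an adenylate kinase, differed by 2.21 (SE 0.40, adjusted p = 0.00127), and Pltp, a phospholipid carrier outside the naming rule, by 1.33 (SE 0.29, adjusted p = 0.00433). The lower genes serve DNA: Ddb2, which recognizes UV damage, had 2.003 to 4.47 CPM against 4.22 to 12.3 (-1.28, SE 0.28, adjusted p = 0.00486), and Rrm2b, a subunit of ribonucleotide reductase, 4.44 to 6.28 against 9.79 to 15.4 (-1.08, SE 0.20, adjusted p = 0.0016, named after its value was seen). For p53 targets of repair, metabolism and secretion, the median ran from 0.15 without FGF19+MYC replicate 5 to 0.40 without sgTrp53+MYC replicate 3.
Taking the 3 lists together, 24 of 50 p53 targets tested were higher in FGF19+MYC tumors, 3 were lower and 23 were not called. In Aldafermin+MYC tumors, Cdkn1a had 91.1 ± 33.9 (SD, n = 5) CPM, Mdm2 45.6 ± 8.45 (SD, n = 5) and Eda2r 11.2 ± 10.1 (SD, n = 5). In livers the same genes had 6.04 ± 6.25 (SD, n = 5), 29.8 ± 1.96 (SD, n = 5) and 1.014 ± 0.546 (SD, n = 5) CPM.

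Genes of chromosome 7 lay, in their median, higher in FGF19+MYC tumors. For each library, the median over genes of its log2 CPM minus the mean of the FGF19+MYC tumors was taken per chromosome, as a description without a test. On chromosome 7, with 1045 genes, it was -0.37, -0.22, -0.22, -0.28 and -0.31 in sgTrp53+MYC replicates 1 to 5, and between -0.09 and 0.06 in FGF19+MYC tumors, each set against the mean of the other 4. In every sgTrp53+MYC library chromosome 7 was the lowest of the 20 chromosomes, and the other chromosomes of these libraries stayed between -0.17 and 0.18. Chromosome 7 also ranked lowest in FGF19+MYC replicate 3, where its median was -0.02. Of the genes on chromosome 7, 72.6% had a positive log2 fold change, 170 were called higher (16.3%) and 24 lower (2.30%), around a median of 0.29. In 15 windows of 10 Mb along the chromosome the median was positive in all 15, from 0.10 to 0.46, and all 5 sgTrp53+MYC libraries were below the FGF19+MYC mean in 14. Aldafermin+MYC tumors had chromosome 7 medians of -0.04 to 0.06 and livers of -0.09 to -0.01 on the same scale. The mean over sgTrp53+MYC libraries was -0.28, and it was -0.22 after GC content and exon length were taken out, -0.29 with protein coding genes only and -0.28 with genes that overlap no other, a setting in which another chromosome reached -0.29 in a sgTrp53+MYC library. DNA copy number was not measured in these files.

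**Figure D2:**
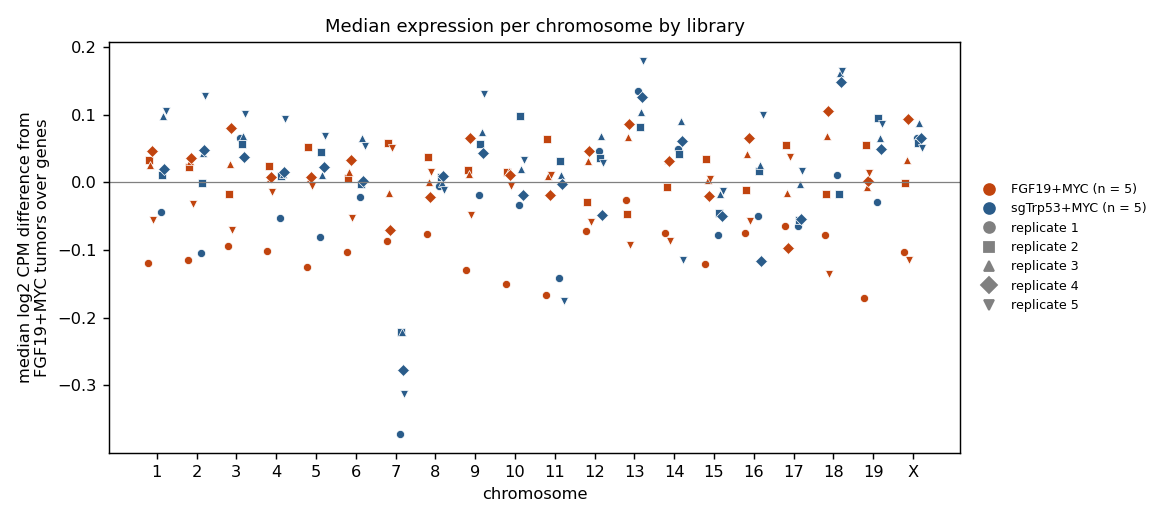
Median over genes of the log2 CPM difference from FGF19+MYC tumors, per chromosome (x axis) and library (symbols). The 5 sgTrp53+MYC libraries sit between -0.37 and -0.22 on chromosome 7 and within -0.17 to 0.18 on the other chromosomes.

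The bile acid enzyme that FGF19 is known to lower was lower in FGF19+MYC tumors. Cyp7a1 was at 0.335, 1.53, 0.314, 0.176 and 3.304 CPM in the 5 FGF19+MYC tumors and at 92.6, 37.2, 72.8, 4.53 and 61.3 CPM in the 5 sgTrp53+MYC tumors. Among the latter, replicate 4 came closest to the FGF19+MYC range but stayed above it, and the log2 fold change was -5.53 (SE 1.54, adjusted p = 0.0198). Cyp7a1 was not called without FGF19+MYC replicate 3 (log2 fold change -5.31, adjusted p = 0.0516), nor without livers in the model (adjusted p = 0.0522). Livers had 293 ± 169 (SD, n = 5) CPM and Aldafermin+MYC tumors 5.800 ± 12.9 (SD, n = 5). Of 16 enzymes of bile acid synthesis tested, 1 more was called, Hsd3b7, a steroid dehydrogenase that lies on chromosome 7, which was higher by 1.41 (SE 0.39, adjusted p = 0.0189), and the median was -0.25. Hsd3b7 was not called without FGF19+MYC replicate 5 (log2 fold change 1.23, adjusted p = 0.0523), nor with the 10 libraries alone, with the GC and length offset in the 10 libraries or with block and offset together (adjusted p of 0.0541 to 0.0738). Cyp8b1, which sets the share of cholic acid, had 2.34, 10.7, 5.21, 5.31 and 10.97 CPM against 89.6, 28.6, 54.7, 5.31 and 13.8 CPM. Its groups overlapped at sgTrp53+MYC replicate 4 and the log2 fold change of -2.47 did not pass the threshold, although it did with the 10 libraries alone (adjusted p = 0.0452) and with DESeq2 (adjusted p = 0.0354). For bile acid synthesis enzymes, the number higher was 0 without FGF19+MYC replicate 5. As to lower calls, there were 0 without FGF19+MYC replicate 3, 2 without FGF19+MYC replicate 1 or 5, and 3 with DESeq2. Medians ran from -0.52 without FGF19+MYC replicate 5 to -0.16 without sgTrp53+MYC replicate 1.

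Fabp6, the ileal bile acid-binding protein, was at 0, 0, 0, 0.147 and 0.422 CPM in FGF19+MYC and 92.2, 119, 4.84, 2.12 and 17.2 CPM in sgTrp53+MYC tumors, a log2 fold change of -8.51 (SE 1.95, adjusted p = 0.0086). It was listed at 0 in 3 FGF19+MYC tumors and in all 5 livers. Among 15 regulators and transporters of bile acids, 1 was higher and 2 were lower. Nr1h4, the bile acid receptor FXR, had 40.1, 27.8, 32.8, 31.8 and 39.1 CPM against 71.8, 55.8, 67.8, 47.5 and 66.6 CPM with no overlap (-0.85, SE 0.19, adjusted p = 0.00561). Abcb11, the bile salt export pump and a target of FXR, was lower at -0.91 (SE 0.30, adjusted p = 0.0453), a call that held in 12 of 24 other settings. Abcc2, which exports conjugates, was higher by 0.95 (SE 0.27, adjusted p = 0.0247). Abcb11 was not called without FGF19+MYC replicate 3 or 4 or sgTrp53+MYC replicate 1, 2 or 5 (log2 fold changes of -0.95 to -0.75, adjusted p of 0.0504 to 0.118). Abcc2 was not called without FGF19+MYC replicate 3, 4 or 5 or sgTrp53+MYC replicate 2 or 5 (log2 fold changes of 0.82 to 0.91, adjusted p of 0.0512 to 0.0628), nor with the 10 libraries alone or with no filter on low counts (adjusted p of 0.0575 to 0.0715). Nr0b2, the partner through which FXR lowers Cyp7a1, ranged over 2.59 to 82.2 CPM and 0.783 to 26.99 CPM, with replicate 4 alone above 2.5 CPM in the sgTrp53+MYC group (2.15, SE 0.89, adjusted p = 0.103, not called), and without that library it was 4.19 (adjusted p = 0.0014). Slc51b, a basolateral bile acid exporter outside the naming rule, ranged over 0.583 to 42.7 and 4.53 to 88.3 CPM and was not called either, but was called at -3.09 (adjusted p = 0.0247) without FGF19+MYC replicate 1, its highest library in that group. For bile acid receptors, regulators and transporters, the number higher was 0 without FGF19+MYC replicate 3, 4 or 5 or sgTrp53+MYC replicate 2 or 5, 2 without FGF19+MYC replicate 2, and 3 without sgTrp53+MYC replicate 4. The number lower was 1 without FGF19+MYC replicate 3 or 4 or sgTrp53+MYC replicate 5, 4 without FGF19+MYC replicate 5, and 4 with DESeq2 or with no filter on low counts. It was also 1 with the 10 libraries alone, without livers in the model or with the replicate number as a block. The GC and length offset in the 10 libraries, with or without the block, likewise gave 1 lower.

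**Figure D3:**
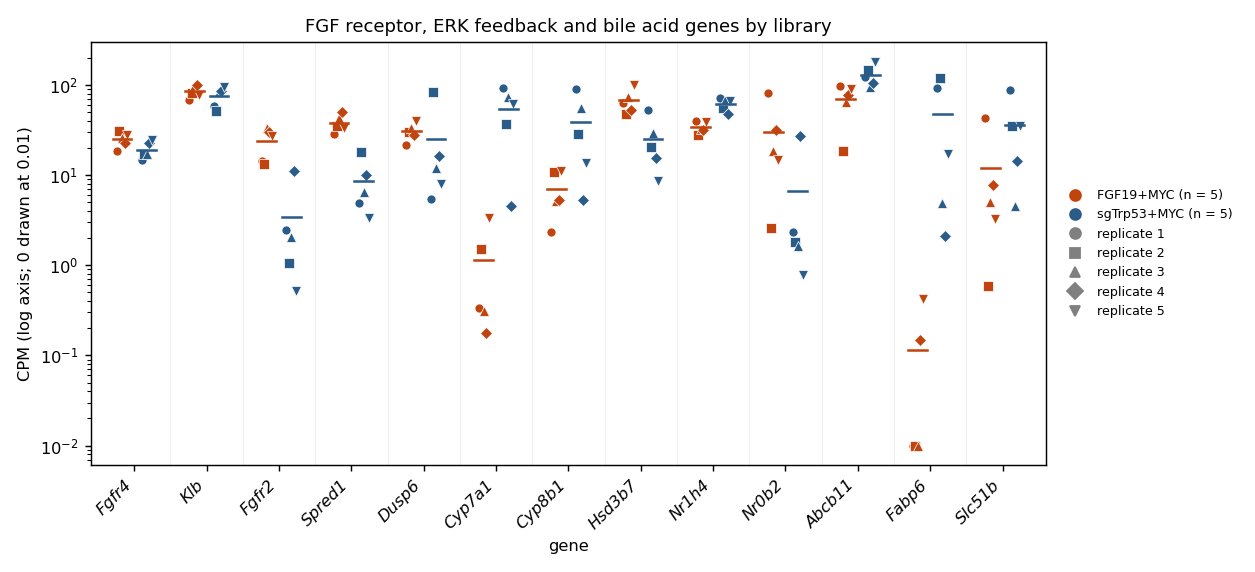
CPM on a log axis of FGF receptor, ERK feedback and bile acid genes in the 10 libraries, where 0 is drawn at 0.01 and each line is a group mean. Cyp7a1 and Fabp6 are lower and Fgfr2 and Spred1 higher in every FGF19+MYC tumor than in any sgTrp53+MYC tumor, while Fgfr4 and Klb overlap.

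The receptors of the hormone passed no threshold. Fgfr4 had 18.7, 30.8, 25.8, 22.8 and 27.7 CPM in FGF19+MYC and 14.6, 16.9, 17.1, 22.5 and 24.2 CPM in sgTrp53+MYC tumors (0.40, SE 0.15, adjusted p = 0.0841), and Klb, which encodes beta-klotho, 67.9 to 99.7 against 50.7 to 95.1 CPM (0.18, SE 0.21, adjusted p = 0.612). Their groups overlapped, and liver means were 79.8 and 109 CPM. Fgfr4 was called higher without FGF19+MYC replicate 1 (0.49, adjusted p = 0.0347) or sgTrp53+MYC replicate 5 (0.50, adjusted p = 0.045). The mouse hormone Fgf15 had at most 3 counts in any of the 10 libraries. The human FGF19 transgene has no row in a mouse annotation and was not measured. Of 11 receptors, ligands and adaptors tested, Fgfr2 alone was called. It had 14.3, 13.2, 33.6, 29.99 and 27.4 CPM in FGF19+MYC tumors and 2.47, 1.06, 2.05, 11.2 and 0.522 CPM in sgTrp53+MYC tumors, highest in replicate 4 of the latter (2.77, SE 0.59, adjusted p = 0.00372), and it lies on chromosome 7. Livers had 66.6 ± 13.9 (SD, n = 5) CPM.

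Genes that ERK signaling induces and that act back on it were mostly not called: 2 of 15 were higher and none lower in edgeR's test, with a median of 0.42, while at an unadjusted p under 0.05 there were 3 and 0 and with DESeq2 3 and 0. Spred1, an inhibitor of RAS activation, had 28.4, 35.1, 43.3, 49.6 and 33.1 CPM against 4.96, 18.1, 6.45, 10.1 and 3.33 CPM (2.14, SE 0.32, adjusted p = 0.000303). Spry1, an inhibitor of receptor tyrosine kinase signaling, was higher by 1.12 (SE 0.35, adjusted p = 0.0382) but in 12 of 24 other settings only. Spry1 was not called without FGF19+MYC replicate 3, 4 or 5 or sgTrp53+MYC replicate 1, 3 or 5 (log2 fold changes of 0.91 to 1.09, adjusted p of 0.0686 to 0.0813). Dusp6, the phosphatase of ERK, had 21.7, 29.97, 33.1, 27.9 and 39.5 CPM in FGF19+MYC and 5.49, 82.3, 11.98, 16.4 and 7.92 CPM in sgTrp53+MYC tumors. Replicate 2 of the latter was above every FGF19+MYC tumor and the other 4 were below all of them, so that the log2 fold change was 0.29 (SE 0.58, adjusted p = 0.78), and 1.54 without that library (adjusted p = 0.0234). Spry4 was arranged likewise, with 25.7 CPM in replicate 2 and -0.01 as its log2 fold change. Unlike Dusp6, Spry4 was called in 0 of 25 other settings, that without replicate 2 included, at log2 fold changes of -0.27 to 1.37. For ERK pathway feedback and immediate response genes, the number higher was 1 without FGF19+MYC replicate 3, 4 or 5 or sgTrp53+MYC replicate 1, 3 or 5, 4 without sgTrp53+MYC replicate 4, and 6 without sgTrp53+MYC replicate 2. Their median ran from 0.14 without sgTrp53+MYC replicate 1 to 1.55 without sgTrp53+MYC replicate 2.

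Some genes of the MYC program were called. The mouse Myc gene had 1.51 to 6.78 CPM against 2.55 to 4.302 (0.50, SE 0.40, adjusted p = 0.423), and the liver mean was 7.45 CPM. Whether reads of the MYC plasmid fall in this count was not tested. In its network of partners, 1 of 13 was called, the antagonist Mxi1, lower at -0.58 (SE 0.11, adjusted p = 0.00142). For the MYC, MAX and MXD network, the number higher was 1 without sgTrp53+MYC replicate 1. Lower calls numbered 2 without FGF19+MYC replicate 2 or sgTrp53+MYC replicate 2, and 3 without sgTrp53+MYC replicate 1. Of 24 growth genes that MYC is known to induce, 5 were higher and none lower, with a median of -0.01. The share higher was 20.8%, against 7.97% over all genes tested. At an unadjusted p under 0.05 there were 6 and 1 and with DESeq2 5 and 0. The 5 were Bop1 (0.64), Fbl (0.43), Rrp9 (0.46) and Srm (0.55, outside the naming rule), which serve ribosome building and, for Srm, spermidine synthesis, and Ldha, lactate dehydrogenase, by 0.57 (SE 0.19, adjusted p = 0.0488). The call of Ldha held in 3 of 24 other settings. With GC content and exon length as an offset 0 of the 24 genes were higher, so none of the 5 was called. Ldha was not called without FGF19+MYC replicate 1, 2, 3, 4 or 5 or sgTrp53+MYC replicate 1, 3, 4 or 5 (log2 fold changes of 0.48 to 0.61, adjusted p of 0.0563 to 0.115). Srm was not called without sgTrp53+MYC replicate 2 or 3 (log2 fold changes of 0.46 to 0.51, adjusted p of 0.0505 to 0.0586), nor with the 10 libraries alone, with the replicate number as a block, with the GC and length offset, with that offset in the 10 libraries, with block and offset together or with no filter on low counts (adjusted p of 0.0503 to 0.149). Fbl was not called with the GC and length offset, with that offset in the 10 libraries, with block and offset together or with no filter on low counts (adjusted p of 0.0798 to 0.189). Rrp9 was not called with the GC and length offset, with that offset in the 10 libraries, with block and offset together or with no filter on low counts (adjusted p of 0.139 to 0.282). For MYC target genes of growth, the number higher was 3 without sgTrp53+MYC replicate 3, 0 with the GC and length offset or with that offset in the 10 libraries, 1 with block and offset together or with no filter on low counts, and 3 with the 10 libraries alone. Medians ran from -0.10 without sgTrp53+MYC replicate 3 to 0.10 without sgTrp53+MYC replicate 1. Fbl and Ldha lie on chromosome 7.

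Of 30 proliferation genes 1 was higher and 1 lower, with 1 and 3 at an unadjusted p under 0.05 and a median of -0.10. Mki67 had 82.6 to 159 CPM in FGF19+MYC and 81.2 to 199 CPM in sgTrp53+MYC tumors (-0.27, SE 0.31, adjusted p = 0.599), against 3.27 ± 1.81 (SD, n = 5) in livers. Ccne1, cyclin E1, was the exception, at 83.8, 84.5, 82.9, 95.96 and 69.5 CPM against 11.5, 18.99, 20.97, 43.6 and 23.3 CPM. Its groups did not overlap, the log2 fold change was 1.81 (SE 0.30, adjusted p = 0.000657), and its gene lies on chromosome 7, where the median was 0.29. Kif11, a motor of the spindle, was lower at -0.61 (SE 0.20, adjusted p = 0.0406), in 14 of 25 other settings. Kif11 was not called without FGF19+MYC replicate 1, 2, 3 or 5 or sgTrp53+MYC replicate 3, 4 or 5 (log2 fold changes of -0.66 to -0.53, adjusted p of 0.055 to 0.101). For proliferation genes of S phase and mitosis, the number lower was 0 without FGF19+MYC replicate 1, 2, 3 or 5 or sgTrp53+MYC replicate 3, 4 or 5, 2 without sgTrp53+MYC replicate 1, and 3 without livers in the model. The median ran from -0.19 without sgTrp53+MYC replicate 1 to -0.03 without sgTrp53+MYC replicate 4. Pcna had 145 to 196 CPM and 193 to 349 CPM and was not called.

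Cytosolic ribosomal protein genes showed no call, 0 of 81 in edgeR's test and with DESeq2, with 1 higher and 1 lower at an unadjusted p under 0.05 and a median of 0.08, which was -0.45 without FGF19+MYC replicate 1 and 0.46 without sgTrp53+MYC replicate 1. In other settings 3 were lower with the GC and length offset and 2 without FGF19+MYC replicate 1. The replicate number as a block gave 1 higher, and block and offset together gave 1 higher and 2 lower. Rpl5, whose product holds Mdm2 back when ribosome building fails, had 4365, 968, 1137, 1165 and 918 CPM and 3947, 1728, 1023, 1329 and 1179 CPM, highest in replicate 1 of each group, and Rpl11, with the same role, was likewise highest in these libraries. Of the pseudogenes of ribosomal protein genes, 52 of 129 tested were higher (40.3%) and 1 lower, with a median of 1.14, and with GC content and exon length as an offset 44 were higher and 18 lower, with a median of 0.49. For pseudogenes of ribosomal protein genes, the number higher was 79 without sgTrp53+MYC replicate 1, 28 with the 10 libraries alone, and 34 with the GC and length offset in the 10 libraries. As to lower calls, there were 2 without sgTrp53+MYC replicate 3, 8 without FGF19+MYC replicate 1, 3 with the likelihood ratio test, 4 with DESeq2, 6 with the replicate number as a block, 13 with the GC and length offset in the 10 libraries, 16 with block and offset together, and 18 with the GC and length offset. Medians ran from 0.51 without FGF19+MYC replicate 1 to 1.67 without sgTrp53+MYC replicate 1. These copies share reads with their parent genes, so their values depend on how reads with several matches were counted, and the share of reads with several matches was 5.40% to 6.60% in FGF19+MYC and 8.03% to 9.78% in sgTrp53+MYC libraries. The part of this in the result was not tested. All processed pseudogenes together had 39.5% called, against 14.0% of protein coding genes.

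**Figure D4:**
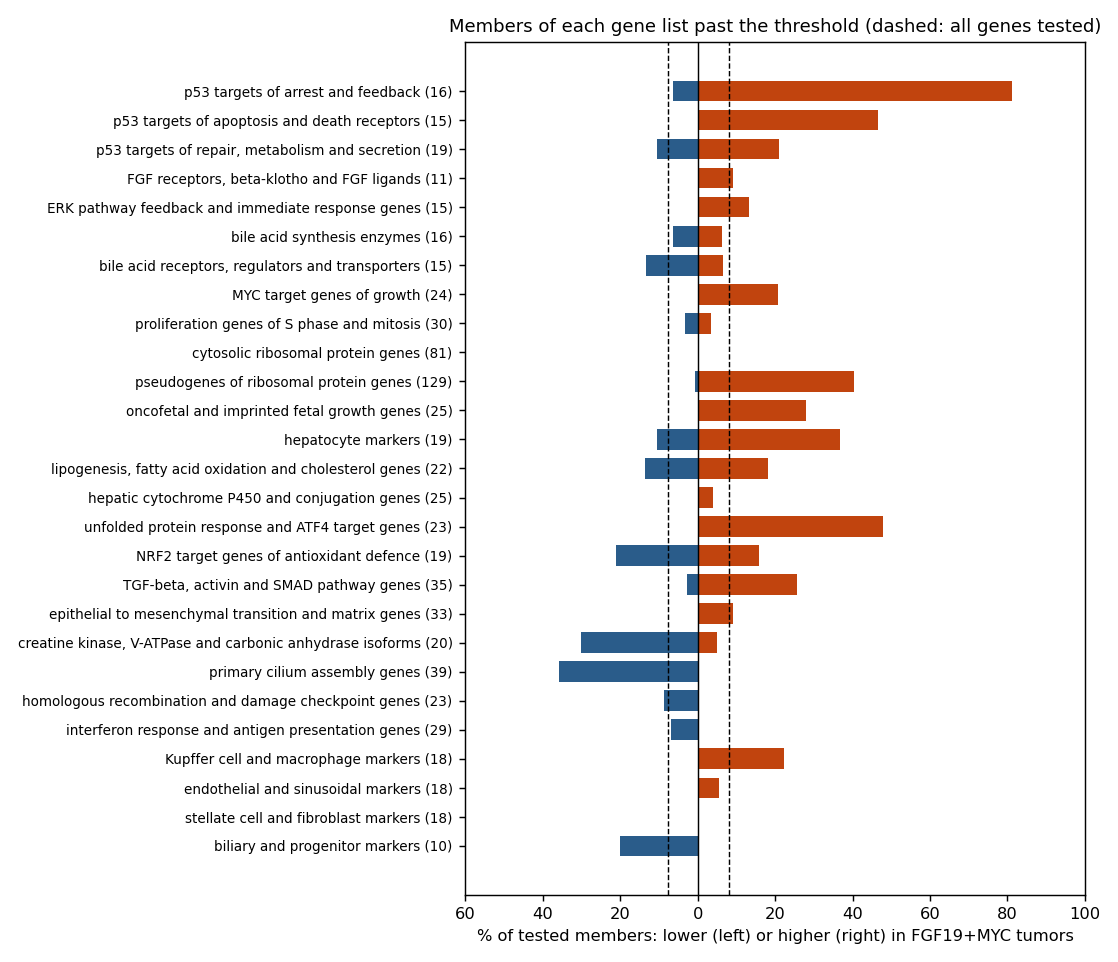
Share of tested members of each gene list (number tested in brackets) that were called higher, to the right, or lower, to the left, in FGF19+MYC tumors. Dashed lines mark the shares over all genes tested, 7.97% higher and 7.78% lower; p53 targets of arrest (81.2%) and unfolded protein response genes (47.8%) extend furthest to the right and primary cilium genes (35.9%) furthest to the left.

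Of 15 transcription factors of hepatocyte identity none was called by edgeR or DESeq2, and none had an unadjusted p under 0.05. In other settings 1 was lower with the GC and length offset or with that offset in the 10 libraries. Block and offset together gave 3 lower. Hnf4a, a master regulator of hepatocytes, had 382 to 622 CPM and 269 to 591 CPM. Hepatocyte markers had 7 of 19 higher and 2 lower and a median of 0.41. Apoa1, the main protein of HDL, had 4378, 3844, 3811, 3263 and 6699.9 CPM in FGF19+MYC and 1859.6, 795, 1048, 1919 and 642 CPM in sgTrp53+MYC tumors (1.81, SE 0.34, adjusted p = 0.00146), and Trf, transferrin, 3582 to 8319 against 797 to 2961 CPM (1.61, SE 0.28, adjusted p = 0.000943). Both were separate between groups, as was Apob (0.80). Alb was higher by 1.73 (SE 0.50, adjusted p = 0.0251), with FGF19+MYC replicate 5 the highest. Cps1, the first enzyme of the urea cycle, was lower (-0.85, SE 0.24, adjusted p = 0.0226). Alb was not called without FGF19+MYC replicate 5 or sgTrp53+MYC replicate 2 or 5 (log2 fold changes of 1.25 to 1.53, adjusted p of 0.0566 to 0.0945), nor with the 10 libraries alone, without livers in the model, with the replicate number as a block or with block and offset together (adjusted p of 0.0632 to 0.123). Cps1 was not called without FGF19+MYC replicate 2 or sgTrp53+MYC replicate 2 (log2 fold changes of -0.71 to -0.70, adjusted p of 0.0621 to 0.0623), nor with the replicate number as a block, with the GC and length offset in the 10 libraries or with block and offset together (adjusted p of 0.0527 to 0.097). For hepatocyte markers, the number higher was 3 without FGF19+MYC replicate 5 or sgTrp53+MYC replicate 5, 4 without sgTrp53+MYC replicate 2, 3 without livers in the model, with the replicate number as a block or with block and offset together, and 4 with the 10 libraries alone or with no filter on low counts. Lower calls numbered 0 without FGF19+MYC replicate 2, 1 without FGF19+MYC replicate 1, 3 or 4 or sgTrp53+MYC replicate 2, 3 or 5, and 0 with the GC and length offset in the 10 libraries. Their median ran from -0.01 without FGF19+MYC replicate 5 to 0.76 without sgTrp53+MYC replicate 1. Of 25 cytochrome P450 and conjugation genes 1 was called. Cyp2d26 was higher by 1.10 (SE 0.21, adjusted p = 0.00149), and Cyp2e1, not called, ranged over 31.3 to 1369.5 CPM in FGF19+MYC and 20.03 to 701 CPM in sgTrp53+MYC tumors.

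Metabolic genes were called in both directions. Of 22 lipid genes, 4 were higher and 3 lower, with a median of 0.17. The higher genes included Dgat2, the last step of triglyceride synthesis (0.75, SE 0.17, adjusted p = 0.0058, on chromosome 7), and Sqle, squalene epoxidase of cholesterol synthesis (0.73, outside the naming rule). The lower genes were Me1, malic enzyme, at 10.6, 28.5, 25.4, 29.7 and 39.9 CPM against 93.5, 88.3, 85.8, 85.2 and 106 CPM (-1.77, SE 0.34, adjusted p = 0.00185), Hadha (-0.71, SE 0.16, adjusted p = 0.00661) and Acadm (-0.64, SE 0.19, adjusted p = 0.0309, outside the rule), both enzymes of mitochondrial fatty acid oxidation. Pcx, pyruvate carboxylase, was lower at -1.01 (SE 0.23, adjusted p = 0.0065) and Aldh1a7, a retinal dehydrogenase relative, at -3.42 (SE 0.47, adjusted p = 0.000154). Sqle was not called without FGF19+MYC replicate 2, 3, 4 or 5 or sgTrp53+MYC replicate 3 or 4 (log2 fold changes of 0.56 to 0.73, adjusted p of 0.0595 to 0.0927), nor with the 10 libraries alone, with the replicate number as a block, with the GC and length offset in the 10 libraries, with block and offset together or with no filter on low counts (adjusted p of 0.0622 to 0.0972). Acadm was not called without FGF19+MYC replicate 2, 3, 4 or 5 or sgTrp53+MYC replicate 1 or 5 (log2 fold changes of -0.65 to -0.51, adjusted p of 0.0508 to 0.0703), nor without livers in the model or without pseudogene-like symbols (adjusted p of 0.0511 to 0.0548). Pcx was not called with the GC and length offset in the 10 libraries (adjusted p = 0.0617). For lipogenesis, fatty acid oxidation and cholesterol genes, the number higher was 2 without FGF19+MYC replicate 2, 3, 4 or 5 or sgTrp53+MYC replicate 3, and 2 with the 10 libraries alone, with block and offset together or with no filter on low counts. The median ran from 0.03 without sgTrp53+MYC replicate 1 to 0.30 without FGF19+MYC replicate 1. Of 24 glycolytic isozymes Ldha was higher, and Pfkm, the muscle form of phosphofructokinase (-1.36), and Pgam1, a phosphoglycerate mutase (-0.51, in 12 of 24 other settings), were lower. Pgam1 was not called without FGF19+MYC replicate 1, 2, 3, 4 or 5 or sgTrp53+MYC replicate 5 (log2 fold changes of -0.55 to -0.35, adjusted p of 0.055 to 0.134). Of 16 genes of beta-catenin and its hepatic targets none was called by edgeR or DESeq2, and 1 was higher at an unadjusted p under 0.05. Leaving out 1 library gave 0 or 1 higher.

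Oncofetal genes, which fetal liver expresses and adult liver silences, were higher in 7 of 25 tested and lower in none by edgeR, with a median of 0.88; at an unadjusted p under 0.05, 9 were higher and 2 lower, and with DESeq2 8 and 2. Afp, alpha-fetoprotein, had 1839.6, 2754, 3966, 3052 and 2258 CPM in FGF19+MYC tumors and 445, 413, 295, 1267 and 355 CPM in sgTrp53+MYC tumors. The groups were separate, sgTrp53+MYC replicate 4 came closest, and the log2 fold change was 2.32 (SE 0.63, adjusted p = 0.0169). Sall4, a stem cell transcription factor, had 19.9, 22.5, 37.4, 31.6 and 18.7 CPM against 0.0659, 0.126, 1.18, 7.94 and 0.414 CPM (3.74, SE 0.86, adjusted p = 0.00632). It was below 0.5 CPM in 3 sgTrp53+MYC tumors and again highest in replicate 4. Golm1, a Golgi protein, was higher by 1.34 (SE 0.27, adjusted p = 0.0028), Gpc3, glypican 3, by 1.13 (SE 0.36, adjusted p = 0.0403), and the imprinted genes Peg10 and Meg3 (outside the naming rule) by 1.28 and 2.17; the calls of Gpc3 and Meg3 held in 13 of 25 and 12 of 24 other settings. Spink1, a trypsin inhibitor also outside the rule, was higher by 1.51. Gpc3 was not called without FGF19+MYC replicate 2, 3, 4 or 5 or sgTrp53+MYC replicate 1, 2, 3 or 5 (log2 fold changes of 0.94 to 1.18, adjusted p of 0.0534 to 0.0972). Meg3 was not called without FGF19+MYC replicate 1, 2, 3, 4 or 5 or sgTrp53+MYC replicate 2, 3 or 5 (log2 fold changes of 1.95 to 2.25, adjusted p of 0.0542 to 0.0992). Peg10 was not called without FGF19+MYC replicate 3 or 4 or sgTrp53+MYC replicate 2, 3 or 5 (log2 fold changes of 1.10 to 1.24, adjusted p of 0.052 to 0.055). Spink1 was not called without FGF19+MYC replicate 1 (log2 fold change 1.09, adjusted p = 0.0552), nor with the 10 libraries alone, with the replicate number as a block, with the GC and length offset, with that offset in the 10 libraries or with block and offset together (adjusted p of 0.0564 to 0.205). For oncofetal and imprinted fetal growth genes, the number higher was 4 without FGF19+MYC replicate 3 or 4 or sgTrp53+MYC replicate 3 or 5, and 4 with the 10 libraries alone or with the GC and length offset in the 10 libraries. H19 and Igf2, imprinted neighbors at the end of chromosome 7, had 0.41 and 0.17 and were not called, and Dlk1 did not overlap between groups (623 to 836 against 3.94 to 554 CPM) but had an adjusted p of 0.383. Hmga2, chosen after its values were seen, had 0.558, 6.12, 8.797, 3.05 and 4.36 CPM in FGF19+MYC tumors and 0.247, 56.7, 0.0461, 0.272 and 0.0307 CPM in sgTrp53+MYC tumors, so its log2 fold change was -1.32 with all libraries and 4.92 (adjusted p = 0.000883) without sgTrp53+MYC replicate 2.

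Genes of the unfolded protein response and of ATF4, which answer stress in the endoplasmic reticulum or a lack of amino acids, were higher in 11 of 23 tested and lower in none by edgeR (16 and 0 at an unadjusted p under 0.05, 13 and 0 with DESeq2), and 23 of 23 had a positive log2 fold change around a median of 0.65. Pdia4, a chaperone of disulfide bonds, had 174, 239, 249.5, 250.0 and 226 CPM in FGF19+MYC and 125, 142, 116, 157 and 115 CPM in sgTrp53+MYC tumors (0.80, SE 0.14, adjusted p = 0.000864). Hspa5, the chaperone BiP, differed by 0.75 (SE 0.17, adjusted p = 0.00644). Trib3, a pseudokinase induced by ATF4, had 33.6, 18.9, 24.8, 17.5 and 13.7 CPM against 3.34, 7.96, 2.44, 12.2 and 4.13 CPM (1.85, SE 0.40, adjusted p = 0.00399). Sesn2, which both ATF4 and p53 induce, had 15.3, 32.9, 36.4, 29.3 and 39.5 CPM against 2.14, 4.76, 6.68, 7.28 and 8.87 CPM (2.37, SE 0.38, adjusted p = 0.000482). The groups of all 4 except Hspa5 were separate. Outside the naming rule, the transcription factors Atf3, Xbp1 and Atf4 were higher by 1.78, 1.05 and 0.53, the last in 7 of 25 other settings only, while Asns, asparagine synthetase, had 0.03. Atf4 was not called without FGF19+MYC replicate 1, 2, 3 or 5 or sgTrp53+MYC replicate 2, 3 or 4 (log2 fold changes of 0.41 to 0.58, adjusted p of 0.0506 to 0.115). Without genes that overlap another, 5 of 11 were higher.

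NRF2 targets, the genes of antioxidant defence, went both ways, with 3 of 19 higher and 4 lower. Osgin1 had 91.2 to 162 CPM against 17.4 to 83.7 CPM (2.07, SE 0.43, adjusted p = 0.00316), Gstm4, a glutathione transferase, was higher by 1.17 and Hmox1, heme oxygenase, by 0.97. Me1 was lower as given, and so were Gclm (-0.58), Ugdh (-0.63) and Cbr3 (-2.73), the last 3 outside the rule. Cbr3 had 30.4 CPM in sgTrp53+MYC replicate 1 and 0.926 to 3.79 in the other 4, and without that library its log2 fold change was -0.90 (adjusted p = 0.223). Cbr3 was not called without FGF19+MYC replicate 3 or 4 or sgTrp53+MYC replicate 1 (log2 fold changes of -2.58 to -0.90, adjusted p of 0.0566 to 0.223), nor with the 10 libraries alone, without livers in the model, with the replicate number as a block, with the GC and length offset in the 10 libraries or with block and offset together (adjusted p of 0.0519 to 0.149). Ugdh was not called without FGF19+MYC replicate 1, 3 or 5 or sgTrp53+MYC replicate 5 (log2 fold changes of -0.65 to -0.53, adjusted p of 0.0565 to 0.0838), nor with block and offset together (adjusted p = 0.0654). Hmox1 was not called without FGF19+MYC replicate 2 or 5 or sgTrp53+MYC replicate 1 or 2 (log2 fold changes of 0.73 to 0.97, adjusted p of 0.0534 to 0.0996), nor with the GC and length offset, with that offset in the 10 libraries, with block and offset together or with no filter on low counts (adjusted p of 0.0553 to 0.188). Gstm4 was not called with block and offset together (adjusted p = 0.0605). For NRF2 target genes of antioxidant defence, the number higher was 5 without FGF19+MYC replicate 1 or sgTrp53+MYC replicate 5, and 5 with DESeq2. As to lower calls, there were 2 without FGF19+MYC replicate 3, and 2 with block and offset together.

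Genes of the TGF-beta, activin and SMAD pathway were higher in 9 of 35 and lower in 1, with a median of 0.36. Nodal, a ligand of early embryos, had 2.01, 1.13, 1.39, 3.55 and 3.23 CPM in FGF19+MYC and 0.247, 0.1399, 0.0692, 0.762 and 0.0614 CPM in sgTrp53+MYC tumors (3.13, SE 0.67, adjusted p = 0.0041). Cited1, a coactivator of SMAD4, had 1.23, 4.77, 2.24, 1.12 and 1.48 CPM against 0, 0.2099, 0.415, 0.395 and 0.261 CPM (3.05, SE 0.67, adjusted p = 0.00473). Both genes are low, and both were above every sgTrp53+MYC tumor in all FGF19+MYC tumors. Id1, a target of BMP signaling, had 22.98 to 45.5 against 4.21 to 17.9 CPM (1.76, SE 0.39, adjusted p = 0.00526). Outside the rule, the activin antagonist Fst was higher by 3.47 (SE 0.84, adjusted p = 0.00878), with FGF19+MYC replicate 1 at 21.7 CPM, and the Nodal antagonist Lefty1 was the lower gene (-1.78, SE 0.53, adjusted p = 0.028). Lefty1 was not called without FGF19+MYC replicate 1, 3 or 4 or sgTrp53+MYC replicate 3 or 5 (log2 fold changes of -1.69 to -1.58, adjusted p of 0.0544 to 0.0677), nor with the replicate number as a block (adjusted p = 0.058). Fst was not called with the 10 libraries alone (adjusted p = 0.0515). For TGF-beta, activin and SMAD pathway genes, the number higher was 5 without sgTrp53+MYC replicate 1 or 5, and 5 without livers in the model or with no filter on low counts. Lower calls numbered 0 without FGF19+MYC replicate 1, 3 or 4 or sgTrp53+MYC replicate 3 or 5, 2 without sgTrp53+MYC replicate 1, and 3 with block and offset together. Of 33 genes of the epithelial to mesenchymal transition and matrix, 3 were higher and none lower (4 and 1 at an unadjusted p under 0.05 and with DESeq2), with a median of 0.40. The share higher was 9.09%, near the 7.97% over all genes tested. The 3 genes were Glipr2 (111, 88.4, 115, 104 and 81.7 against 4.200, 10.1, 16.7, 52.1 and 14.1 CPM, 2.36, SE 0.45, adjusted p = 0.00165), Fn1, fibronectin (1.47, SE 0.35, adjusted p = 0.0077), and Snai1, a repressor of epithelial genes (1.04, SE 0.35, adjusted p = 0.0497, in 6 of 23 other settings). Snai1 was not called without FGF19+MYC replicate 2, 3, 4 or 5 or sgTrp53+MYC replicate 1, 3, 4 or 5 (log2 fold changes of 0.87 to 1.11, adjusted p of 0.0545 to 0.106). For epithelial to mesenchymal transition and matrix genes, the number higher was 5 without sgTrp53+MYC replicate 2, 6 with block and offset together, and 8 with the replicate number as a block. As to lower calls, there were 1 without sgTrp53+MYC replicate 1. Medians ran from 0.25 without sgTrp53+MYC replicate 1 to 0.49 without sgTrp53+MYC replicate 3.

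Genes of the primary cilium, a sensory antenna built by intraflagellar transport, were lower in FGF19+MYC tumors in 14 of 39 (35.9%) and none was higher by edgeR, at an unadjusted p under 0.05 (23 lower) or with DESeq2 (17 lower). A negative log2 fold change was seen in 35 of 39, with a median of -0.51. Ift57, of the transport particle, had 0.335, 1.06, 0.628, 1.09 and 1.16 CPM in FGF19+MYC and 8.83, 7.304, 7.31, 4.62 and 4.73 CPM in sgTrp53+MYC tumors (-2.92, SE 0.39, adjusted p = 0.00012). Dync2li1, of the motor that returns the particle, had 1.84, 1.06, 0.808, 1.94 and 0.738 CPM against 9.59, 9.15, 12.7, 5.596 and 4.08 CPM (-2.69, SE 0.39, adjusted p = 0.0002). Livers had 1.15 ± 0.2598 (SD, n = 5) and 1.29 ± 0.279 (SD, n = 5) CPM of these genes, respectively. Ift74 was lower at -1.10 (SE 0.23, adjusted p = 0.00314) and Ift88 at -0.55 (SE 0.18, adjusted p = 0.042), the latter in 9 of 24 other settings. Ift88 was not called without FGF19+MYC replicate 2 or 5 or sgTrp53+MYC replicate 1, 2, 3 or 5 (log2 fold changes of -0.58 to -0.45, adjusted p of 0.0534 to 0.112). Ift74 was not called with the GC and length offset in the 10 libraries (adjusted p = 0.0509). The exons of these 4 genes overlap another gene on the opposite strand, and among the 19 cilium genes that overlap none, 6 were lower. For primary cilium assembly genes, the number lower was 8 with the 10 libraries alone, and 9 with the GC and length offset in the 10 libraries or with block and offset together.

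Genes of homologous recombination and damage checkpoints were lower in 2 of 23 and higher in none by edgeR (7 and 0 at an unadjusted p under 0.05, 4 and 0 with DESeq2). The share lower was 8.7%, near the 7.78% over all genes tested. The 2 genes were Rad51c, a gene of homologous recombination, with 0.893, 0.728, 0.853, 0.587 and 0.949 CPM against 4.497, 2.603, 2.69, 1.05 and 1.63 CPM (-1.64, SE 0.35, adjusted p = 0.00397), and the kinase Atm (-0.54, SE 0.17, adjusted p = 0.0362, in 13 of 25 other settings). Atm was not called without FGF19+MYC replicate 1, 3 or 5 or sgTrp53+MYC replicate 2, 3, 4 or 5 (log2 fold changes of -0.57 to -0.46, adjusted p of 0.054 to 0.0964). For homologous recombination and damage checkpoint genes, the number lower was 1 without FGF19+MYC replicate 1, 3 or 5 or sgTrp53+MYC replicate 2, 3, 4 or 5, and 4 without sgTrp53+MYC replicate 1. Interferon and antigen presentation genes had 2 of 29 lower, the transcription factor Stat2 (-0.88) and the RNA sensor Ddx58 (-0.71), and none higher (1 and 2 at an unadjusted p under 0.05, 0 and 2 with DESeq2). Their share lower was 6.9%, near the 7.78% over all genes tested. Stat2 was not called without FGF19+MYC replicate 1, 3 or 4 or sgTrp53+MYC replicate 3 or 5 (log2 fold changes of -0.85 to -0.75, adjusted p of 0.0502 to 0.0674), nor without livers in the model (adjusted p = 0.0537). Ddx58 was not called without FGF19+MYC replicate 1 or sgTrp53+MYC replicate 2 or 5 (log2 fold changes of -0.61 to -0.59, adjusted p of 0.0552 to 0.0708), nor with the 10 libraries alone, without livers in the model or with the GC and length offset in the 10 libraries (adjusted p of 0.0527 to 0.0774). For interferon response and antigen presentation genes, the number higher was 1 without sgTrp53+MYC replicate 1. The number lower was 0 without FGF19+MYC replicate 1 or sgTrp53+MYC replicate 5, 1 without FGF19+MYC replicate 3 or 4 or sgTrp53+MYC replicate 2 or 3, and 0 without livers in the model.

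In a list of creatine, proton pump (V-ATPase) and carbonic anhydrase genes, which tissues use in different isoforms, 6 of 20 tested were lower in FGF19+MYC tumors and 1 was higher. Ckm, the creatine kinase of muscle, was at 549, 278, 55.5, 16.7 and 455 CPM in the 5 sgTrp53+MYC tumors, with 1223 to 33337 counts, and had at most 1 count in any FGF19+MYC tumor. Against a floor of 3 counts per library, 0.137 CPM in the mean, its mean of 271 CPM in sgTrp53+MYC tumors was at least 1976-fold higher (adjusted p = 2.2e-06). This ratio is of the group mean and does not hold for each tumor. Aldafermin+MYC tumors had 0.164 ± 0.172 (SD, n = 5) CPM and livers 0.0162 ± 0.0223 (SD, n = 5). The other 13 muscle markers had a summed level of 8.36 to 16.7 CPM in FGF19+MYC and 4.04 to 16.8 CPM in sgTrp53+MYC libraries. Of these, Mylpf, a myosin light chain (0.21), and Tpm2, a tropomyosin (0.27), passed the filter on low counts and were not called, and Myh1, Myh4, Mb and Tnnc2 had at most 3 counts in each of the 10 libraries. Ckb, the brain form, had 8.82 to 27.7 CPM and 7.76 to 27.96 CPM. Gatm, which makes the precursor of creatine, had 9.32, 8.78, 9.96, 7.69 and 9.63 CPM against 209, 176, 9.38, 58.5 and 142 CPM (-3.71, SE 0.57, adjusted p = 0.000341). It was high in 4 of 5 sgTrp53+MYC tumors and at the FGF19+MYC level in replicate 3. Gamt, the next step of creatine synthesis and outside the rule, was lower in FGF19+MYC tumors at -0.71 (SE 0.21, adjusted p = 0.0247). Gamt was not called without FGF19+MYC replicate 1, 3 or 4 or sgTrp53+MYC replicate 3 (log2 fold changes of -0.69 to -0.58, adjusted p of 0.0541 to 0.0634), nor with the 10 libraries alone (adjusted p = 0.052).

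Subunits of the proton pump that are typical of kidney were also lower in FGF19+MYC tumors. Atp6v0a4 had 0.502, 0.947, 0.853, 1.79 and 0.281 CPM in FGF19+MYC and 35.5, 39.3, 22.8, 5.26 and 41.1 CPM in sgTrp53+MYC tumors (-5.01, SE 0.76, adjusted p = 0.000304), and Atp6v1b1, outside the rule, 0.792 to 1.56 against 3.23 to 9.22 CPM (-2.46, SE 0.40, adjusted p = 0.000535). The widely expressed subunit Atp6v0a1, outside the rule, went the other way (1.07, SE 0.26, adjusted p = 0.00996). Car3, carbonic anhydrase 3, which adult liver also expresses, was lower at -2.88 (SE 0.90, adjusted p = 0.0365), in 15 of 24 other settings. Car3 was not called without FGF19+MYC replicate 1, 2, 3 or 4 or sgTrp53+MYC replicate 3 or 5 (log2 fold changes of -3.06 to -2.48, adjusted p of 0.0585 to 0.0862).

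**Figure D5:**
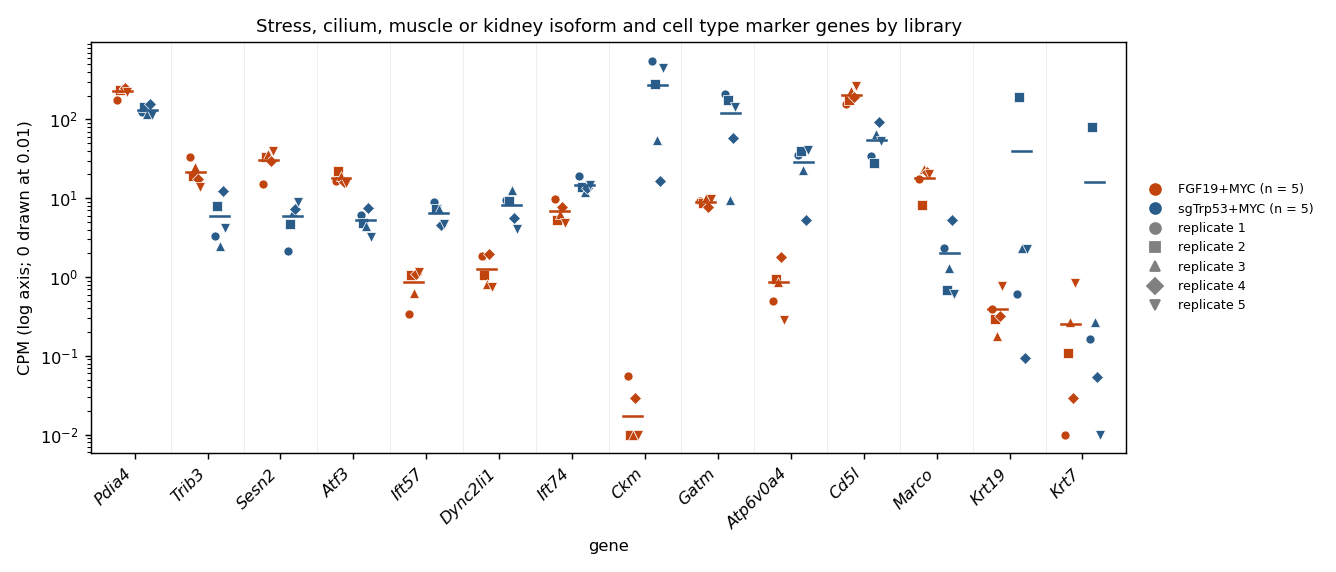
CPM on a log axis of stress, cilium, creatine, proton pump and cell type marker genes in the 10 libraries, where 0 is drawn at 0.01 and each line is a group mean. Ckm and Atp6v0a4 lie far higher in sgTrp53+MYC tumors, Cd5l and Marco higher in FGF19+MYC tumors, and Krt19 and Krt7 are high in sgTrp53+MYC replicate 2 alone.

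The remaining genes at the ends of the range, by the naming rule, were of mixed function. Among the 10 lowest were also Lad1, a protein of the basement membrane (0.0898 to 0.558 against 2.39 to 81.5 CPM, -7.28, SE 1.37, adjusted p = 0.00156), Dao, D-amino acid oxidase (1.34, 0.692, 0.404, 0.704 and 0.598 against 14.6, 36.4, 22.02, 3.404 and 43.4 CPM, -5.01, SE 0.80, adjusted p = 0.000464), Albfm1, an albumin relative (-3.68), Fam83f (-3.57) and Celsr1, a cadherin of planar polarity (-3.48). Among the 10 highest were also Fabp2, the intestinal fatty acid-binding protein (3.15, SE 0.85, adjusted p = 0.0168), Hkdc1, a hexokinase (21.99, 47.7, 45.7, 48.2 and 44.1 against 0.774, 2.099, 1.51, 19.3 and 1.27 CPM, 3.06, SE 0.67, adjusted p = 0.00476), and Aqp4, a water channel (3.04, SE 0.80, adjusted p = 0.0149). Fabp2 was not called with the 10 libraries alone or with the GC and length offset in the 10 libraries (adjusted p of 0.0582 to 0.0802). Aqp4 was not called with the 10 libraries alone or with the GC and length offset in the 10 libraries (adjusted p of 0.0563 to 0.0722). In these 3 genes sgTrp53+MYC replicate 1 or 4 was the highest of its group.

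Markers of the other cells in a tumor were measured for whole lists. Kupffer cell and macrophage markers were higher in 4 of 18 and lower in none by edgeR (8 and 0 at an unadjusted p under 0.05, 5 and 0 with DESeq2), with a median of 0.59 and a summed level of 629 to 984 CPM in FGF19+MYC and 339 to 735 CPM in sgTrp53+MYC libraries. Of the 18 markers, 13 had a positive and 5 a negative log2 fold change. Cd5l, a secreted product of tissue macrophages, had 157, 176, 232, 192 and 264 CPM against 34.3, 28.3, 64.9, 91.9 and 52.9 CPM (1.91, SE 0.31, adjusted p = 0.000482). Marco, a scavenger receptor, had 17.3, 8.12, 23.4, 21.6 and 20.5 CPM against 2.36, 0.686, 1.31, 5.26 and 0.614 CPM (3.15, SE 0.69, adjusted p = 0.00447), and Aldafermin+MYC tumors 3.62 ± 3.39 (SD, n = 5). Timd4, a receptor of resident macrophages, was higher by 2.45 and Csf1r, the receptor of their growth factor, by 1.03 (in 13 of 24 other settings). Timd4 was not called without FGF19+MYC replicate 3, 4 or 5 or sgTrp53+MYC replicate 2 or 5 (log2 fold changes of 2.15 to 2.39, adjusted p of 0.0576 to 0.0667), nor without livers in the model, with the replicate number as a block or with block and offset together (adjusted p of 0.0509 to 0.0814). Csf1r was not called without FGF19+MYC replicate 2, 3, 4 or 5 or sgTrp53+MYC replicate 1, 2, 4 or 5 (log2 fold changes of 0.84 to 1.09, adjusted p of 0.0561 to 0.124). For Kupffer cell and macrophage markers, the number higher was 2 without FGF19+MYC replicate 3, 4 or 5 or sgTrp53+MYC replicate 2 or 5, and 2 without livers in the model. Clec4f, which is specific to Kupffer cells, had 6.03 to 47.2 CPM and 0.368 to 13.2 CPM and was not called.
Endothelial markers had a positive log2 fold change in 18 of 18, around a median of 0.93, but 1 was called, Ramp2 (20.3 to 33.04 against 5.58 to 16.9 CPM, 1.62, SE 0.28, adjusted p = 0.000907), with 9 at an unadjusted p under 0.05 and 6 with DESeq2. For endothelial and sinusoidal markers, the number higher was 2 without sgTrp53+MYC replicate 1, 4 without sgTrp53+MYC replicate 3, 6 without FGF19+MYC replicate 1, 3 with the GC and length offset or with block and offset together, 5 with the likelihood ratio test, and 7 with the replicate number as a block. Their summed level was 294 to 529 and 179 to 309.7 CPM. Of 18 markers of stellate cells and fibroblasts none was called by edgeR, 1 was higher with DESeq2, and 2 were higher at an unadjusted p under 0.05. In other settings 2 were higher with the 10 libraries alone. The replicate number as a block, with or without the offset, gave 3 higher. Of 18 lymphocyte markers 6 passed the filter on low counts, as did 3 of 10 neutrophil markers, and none of these was called by edgeR or DESeq2, with 1 lymphocyte marker lower at an unadjusted p under 0.05. The summed level of the lymphocyte list was 5.49 to 10.96 and 4.64 to 25.7 CPM. Among blood markers Epor was called (1.33). Epor was not called with the replicate number as a block, with the GC and length offset in the 10 libraries or with block and offset together (adjusted p of 0.0632 to 0.118). The part of these cells in the other results was not tested.

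Markers of bile duct and progenitor cells set 1 tumor apart. Krt19 had 0.609, 191, 2.33, 0.0953 and 2.27 CPM and Krt7 0.165, 80.9, 0.265, 0.0545 and 0 CPM in sgTrp53+MYC replicates 1 to 5, and neither passed 0.9 CPM in FGF19+MYC tumors. Both are keratins of bile ducts, both were called lower in FGF19+MYC tumors (log2 fold changes of -6.62, adjusted p = 0.00864, and -5.97, adjusted p = 0.0351), and both calls ended without sgTrp53+MYC replicate 2, with log2 fold changes of -1.74 and 1.04. The call of Krt7 also ended without any of FGF19+MYC replicates 1 to 4 (adjusted p = 0.0612 to 0.0812). Krt19 was not called with the 10 libraries alone, with the replicate number as a block or with block and offset together (adjusted p of 0.0535 to 0.266). Krt7 was not called with the 10 libraries alone, without livers in the model, with the replicate number as a block, with the GC and length offset in the 10 libraries or with block and offset together (adjusted p of 0.0772 to 0.777). Epcam had 22.2 CPM and Hmga2 56.7 CPM in the same tumor. Without it, 0 of the 10 biliary markers tested were called. Of the p53 targets, 12 of arrest, 6 of death and 5 of repair were higher without this library, and 11 unfolded protein response genes were higher and 10 cilium genes lower.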

How the data were processed

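RNA from single tumors was sequenced as stranded mRNA libraries (TruSeq). The authors aligned reads with HISAT2 and deposited raw counts per gene from htseq-count with RefSeq genes on mm39, in a table for FGF19+MYC, Aldafermin+MYC and liver and another for sgTrp53+MYC. The strand setting of counting was not given in the sources used here. The htseq-count summary lines were left out of library sizes. The main comparison used edgeR 4.0.16 (limma 3.58.1, R 4.3.3) with TMM factors, a minimum of 1 CPM in 5 or more of the 20 libraries, a model of all 4 groups and the quasi-likelihood test with Benjamini-Hochberg adjustment at 0.05. The standard error (SE) was taken as the fold change divided by the root of F. Exact permutation tests were two-sided. Labels name separate tumors. The p-values of edgeR set a difference against the spread between libraries of a group, estimated over all 4 groups, livers and Aldafermin+MYC tumors included.

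Samples, gene lists and tests were chosen with earlier results of these data known. Named genes were the key members of each list, its 3 called members with the smallest p, and the 10 highest and 10 lowest called genes whose mean was 10 CPM or more, no overlap of the groups and a symbol of no pseudogene or unnamed-locus form. Others are said to be chosen after their values were seen, and some called list members are not reported here. Alternatives were DESeq2 1.42.0, other factors, filters and tests, fewer libraries, the replicate number, GC content and exon length offsets, gene subsets, thinned counts and leaving out each library. On simulated data at this size the test recovered 40 of 100 genes given a log2 change of 1 and 92 of 100 given 2, with 5 false calls, and made 0 calls where nothing was changed. The simulation held no difference between count tables, no GC or length effect and no outlying library. It therefore does not give the rate of false calls in the compared data. Gene positions were taken from GENCODE M39.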

Additional observations from a re-analysis of the deposited data

Results flagged for a closer look

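Of 285 sets of 5 values (a gene or read class in one group), 46 held a value far from the other 4 by Dixon's criterion. For independent sets with normally spread values, chance would give about 1 in 20, or 14.25. Genes within a library are not independent and some were chosen after their values were seen, so 14.25 is no baseline for 46. The values belong to the library named and are in CPM unless said otherwise.

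In sgTrp53+MYC replicate 2, the far values were Cdkn2a at 80.9, Cdkn2b at 7.51, Bax at 79.5, Tnfrsf10b at 12.8, Dusp6 at 82.3, Spry4 at 25.7, Etv4 at 20.7, Ckb at 28.0, Krt19 at 191, Krt7 at 80.9, Epcam at 22.2 and Hmga2 at 56.7. In sgTrp53+MYC replicate 4, they were Fgfr2 at 11.2, Nr0b2 at 27.0, Abcc2 at 154, Afp at 1267, Gpc3 at 397, Sall4 at 7.94, Meg3 at 74.2, Nodal at 0.762, Glipr2 at 52.1, Osgin1 at 83.7 and Hkdc1 at 19.3. Replicate 1 of the same group had Rrm2b at 15.4, Pcna at 349, Rpl5 at 3947, Acadm at 399 and Cbr3 at 30.4, replicate 3 had Plk2 at 7.95 and Myc at 4.30, and replicate 5 had Pgam1 at 498.

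In FGF19+MYC replicate 1, reads of too low alignment quality made up 10.9% of all reads, and the far genes were Cdkn2a at 0.837, Slc51b at 42.7, Rpl5 at 4365, Rpl11 at 1965, Acadm at 245, Spink1 at 73.1, Fst at 21.7, Ddx58 at 11.3, Fabp2 at 156 and Hkdc1 at 22.0. In FGF19+MYC replicate 5 they were Cyp2e1 at 1369.5, Cyp2d26 at 399, Albfm1 at 4.57 and Celsr1 at 5.24.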

How the results depend on the processing

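Trp53 was called in all 24 other settings, with log2 fold changes of 1.38 to 1.86. The count of 2258 called genes was 1436 (682 higher) with the 10 libraries alone, 946 (493 higher and 453 lower) with genes that overlap no other, and higher calls were 748 without pseudogene-like symbols. Leaving out 1 library gave 1603 to 2643 calls, 854 to 1360 higher and 726 to 1283 lower, the last lowest without FGF19+MYC replicate 2. DESeq2 called 3088. With no filter, 37.9% of calls were higher, against 50.6%. Of 3231 values of 133 genes, 2885 stayed on their side of the threshold, 330 lost the call, 14 gained it, and 2 turned direction with a call. A further 32 values, of 8 genes, changed sign with a call in neither setting, and are among the 2885. The 2 were Krt7, at -7.29 to 1.04 when 1 library was left out, and Hmga2, at -1.70 to 4.92, each turned without sgTrp53+MYC replicate 2. The cause was not tested. The replicate number as a block gave 2186 calls. Same-numbered libraries correlated at -0.28 to 0.33 and 2 of 5 correlated best with their own number, so the numbers were not taken as pairs.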
